A study of Homo sapiens with 20 samples.

Results

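The proteasome genes were taken as the protein-coding genes of the GENCODE annotation of GRCh38 whose symbols run from PSMA to PSMG followed by a number, with PSMC3IP left out because it encodes a recombination cofactor. The rule gave 49 of 20033 protein-coding genes, and it used no measured value. They were 7 alpha subunits and 7 constitutive beta subunits of the 20S core, 5 immunoproteasome genes (PSMB8, PSMB9, PSMB10, PSME1 and PSME2), 2 tissue-specific core subunits (PSMA8 of testis and PSMB11 of thymus), 6 ATPase and 11 non-ATPase subunits of the 19S regulatory particle, 7 assembly chaperones, 3 activators or inhibitors, and PSME3IP1. PSME3IP1 was taken by its symbol and encodes a protein that binds PSME3, not a subunit.

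The proteasome degrades proteins marked with ubiquitin. Its barrel-shaped 20S core has outer rings of alpha subunits, which form the gate, and inner rings of beta subunits, some of which carry the proteolytic sites. The 19S particle binds ubiquitin, removes it, and unfolds and feeds the substrate into the core with its ring of ATPases. Dedicated chaperones build these rings, and in cells that respond to interferon gamma PSMB8, PSMB9 and PSMB10 replace constitutive catalytic subunits while PSME1 and PSME2 cap the core, which alters the peptides made for antigen presentation. Plasma cells secrete large amounts of antibody, and proteasome inhibitors are an established treatment of multiple myeloma.

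ChIP-seq of transcription factors and their coactivators was made in 4 human cell lines. NCI-H526 and NCI-H1048 are small cell lung cancer lines of the POU2F3 (tuft cell-like) subtype, and MM1.S and NCI-H929 are multiple myeloma lines. POU2F3 was precipitated with an antibody to it in NCI-H526 and NCI-H1048, although the NCI-H1048 titles name no protein and the pair was assigned by the antibody it shares with the NCI-H526 libraries. HA-tagged POU2F3 was precipitated with an HA antibody in both lung cancer lines and HA-tagged POU2AF2 in NCI-H526. These tagged proteins were dTAG fusions delivered by lentivirus in cells whose endogenous gene had been knocked out. A further pair from NCI-H1048, also precipitated with the HA antibody, is called HA-unnamed here because its labels give no tagged protein. POU2AF1 and IRF4 were precipitated with their own antibodies in both myeloma lines. POU2F3 binds the octamer sequence through its POU domain, POU2AF1 and POU2AF2 are coactivators of POU factors, and IRF4 is a lymphoid member of the interferon regulatory factor family. Each line and protein had 1 library from cells given DMSO and 1 from cells given 1 µM AU-15330 in DMSO for 4 to 6 h, labelled as 6 h for the HA libraries of NCI-H1048. AU-15330 is a degrader of the ATPases SMARCA2 and SMARCA4 of the mammalian SWI/SNF chromatin remodelling complex and of its subunit PBRM1.

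The 20 deposited peak lists held 1327 to 89902 regions each on the assembled chromosomes. With 1 library per condition no difference between DMSO and AU-15330 had a replicate check, no p-value was computed, and treatment and library quality cannot be told apart within a pair. At least 8 of 10 tuft cell markers had a region in the DMSO lists of the lung cancer lines and at least 9 of 10 plasma cell markers in those of the myeloma lines. Plasma cell markers also had regions in the lung cancer lists, up to 9 of 10 in the longest list. Tuft cell markers likewise had regions in the DMSO lists of the myeloma lines, from 4 to 7 of 10. Markers of other cell types were reached too, with 100% of T cell and 80% of myeloid markers in the NCI-H929 IRF4 list in DMSO. A gene was counted as having a promoter region when a region overlapped the 1 kb on either side of an annotated start of one of its protein-coding transcripts, and its window was the gene body plus 10 kb upstream (11.8 to 148.8 kb, median 27.2 kb). The fold given for a region is the pileup at its summit over the local background as the peak caller wrote it, a value of 1 library.

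In DMSO-treated cells most proteasome genes had a promoter region of most proteins, more often than protein-coding genes at large. Over the 10 DMSO lists, 343 of 490 combinations of a gene and a list had one (70.0%), against 44.1% over all protein-coding genes and 81.6% over 79 genes of cytosolic ribosomal proteins. The proteasome genes therefore stood above the genome and below another set of genes used by all cells, and neither gap was tested. All 49 genes had a region in their window in at least 1 list.

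In NCI-H526, POU2F3 had a promoter region at 45 of the 49 genes (57.0% of all protein-coding genes), HA-POU2F3 at 41 (50.6% of all) and HA-POU2AF2 at 29 (37.3% of all). In NCI-H1048 the counts were 33 for POU2F3 (39.7% of all), 9 for HA-POU2F3 (16.2% of all) and 18 for the HA-unnamed protein (17.2% of all). In MM1.S, POU2AF1 had one at 45 genes (58.5% of all) and IRF4 at 35 (46.8% of all). In NCI-H929, POU2AF1 had one at 43 (55.3% of all) and IRF4 at 45 (62.6% of all). The share of proteasome genes was above that of all genes in each of these lists, and by the least for HA-POU2F3 in NCI-H1048, where 18.4% of the proteasome genes stood against 16.2%.

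Over the whole window, which adds the gene body and 10 kb upstream, the DMSO counts were higher. In NCI-H526 a region lay in the window of 48 of the 49 genes for POU2F3 (77.5% of all protein-coding genes), 44 for HA-POU2F3 (70.3% of all) and 32 for HA-POU2AF2 (57.7% of all). In NCI-H1048 the counts were 38 for POU2F3 (60.6% of all), 13 for HA-POU2F3 (35.8% of all) and 20 for the HA-unnamed protein (35.8% of all). In the myeloma lines they were 48 for POU2AF1 (73.2% of all) and 38 for IRF4 (64.9% of all) in MM1.S, and 46 for POU2AF1 (69.7% of all) and 47 for IRF4 (79.8% of all) in NCI-H929. HA-POU2F3 in NCI-H1048 was the 1 DMSO list in which the share of proteasome windows, 26.5%, lay below that of all genes.

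**Figure D1:**
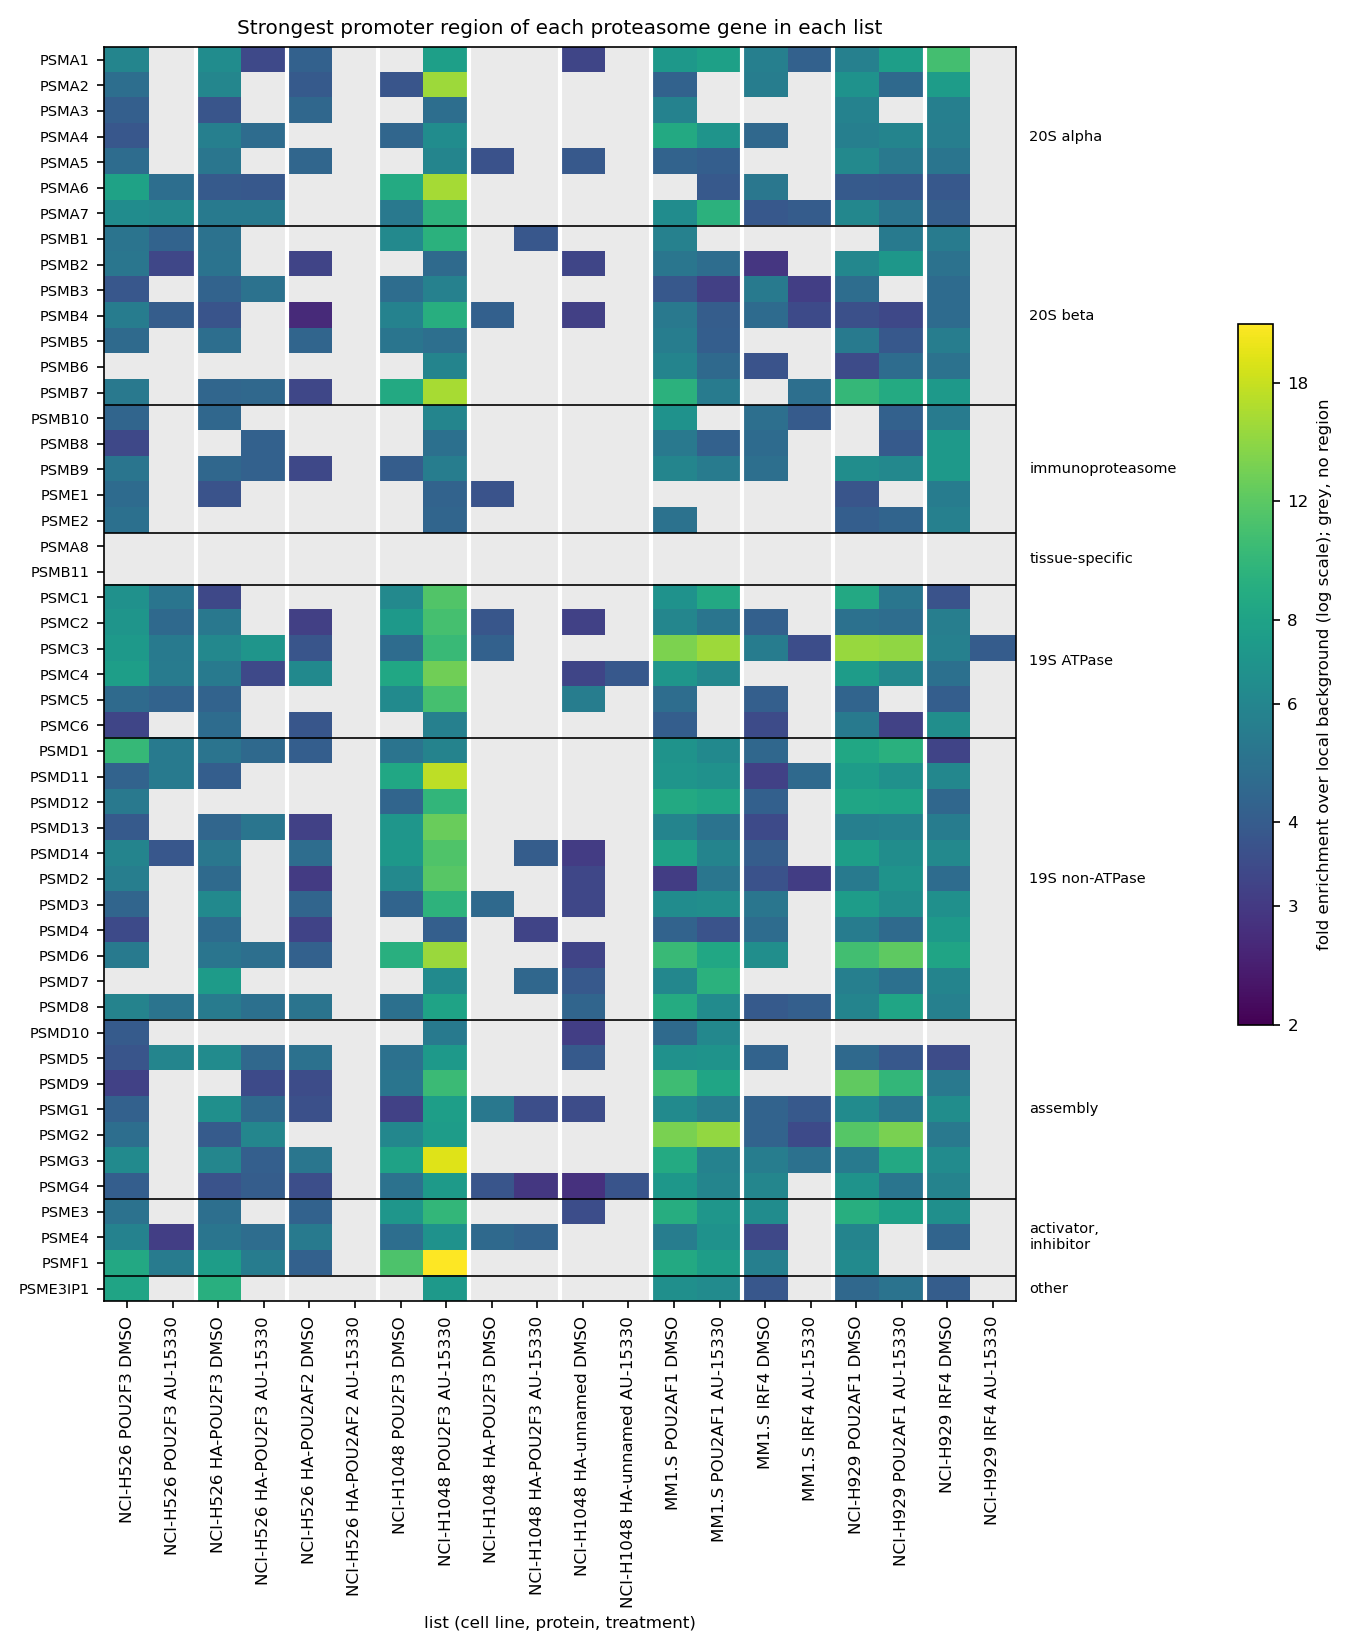
Fold over local background of the strongest promoter region of each of the 49 genes (rows, by role) in each of the 20 lists (columns), on a logarithmic colour scale, with grey where no promoter region was called. Rows of PSMA8 and PSMB11 are grey throughout, and the brightest cells are those of PSMF1 and PSMG3 in NCI-H1048 POU2F3 with AU-15330 (22.0 and 19.5), while PSMC3 stood between 13.8 and 15.5 in the 4 POU2AF1 lists.

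PSMB4 (a core beta subunit), PSMC2 (a 19S ATPase), PSMD3 (a 19S lid subunit) and the assembly chaperones PSMG1 and PSMG4 had a promoter region in all 10 DMSO lists, which held for 893 of all protein-coding genes (4.46%) and 5 of the 49 (10.2%). PSMA8 and PSMB11 had none in any list. Among the others PSMD10, the chaperone known as gankyrin, had the fewest, with 3 lists. A promoter region was present in at least 1 DMSO list of each of the 4 lines for 37 of the 49 genes (39.1% of all protein-coding genes).

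The roles differed modestly in these shares. Over the 10 DMSO lists a promoter region was present in 71.4% of combinations for the alpha subunits, 68.6% for the constitutive beta subunits, 80.0% for the 19S ATPases, 79.1% for the 19S non-ATPases, 75.7% for the assembly chaperones and 83.3% for PSME3, PSME4 and PSMF1. The 5 immunoproteasome genes had one in 26 of 50 combinations (52.0%), against 75.9% for the 41 constitutive genes (the members without the immunoproteasome genes, the tissue-specific subunits and PSME3IP1). With so few genes in each role and lists that share cell lines, these shares describe the genes and were not tested.

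The strongest proteasome promoter for POU2AF1 was that of PSMC3, an ATPase of the 19S base. Its fold was 13.8 in MM1.S and 15.2 in NCI-H929 with DMSO, and these regions ranked 227 of 36604 and 86 of 29818 in their lists. For the other proteins in DMSO it was lower, at 7.34 for POU2F3 and 6.14 for HA-POU2F3 in NCI-H526, 3.78 for HA-POU2AF2, 4.67 for POU2F3 and 4.23 for HA-POU2F3 in NCI-H1048, 5.48 for IRF4 in MM1.S and 5.69 for IRF4 in NCI-H929, and the HA-unnamed list had no region there. PSMC3 was thus prominent in both POU2AF1 lists and less so in the IRF4 lists of the same lines. There it still stood above the median fold of member promoter regions, 4.29 in MM1.S and 4.95 in NCI-H929. The summits of the POU2AF1 regions lay 88 bases apart, on either side of the short stretch shown, which was read from GRCh38 on the strand of the gene. The stretch itself holds none of the sequence patterns searched (they are spelled out with the other sequences). Matches to the antioxidant response element and to the Sp and KLF pattern did lie within 100 bases of a POU2AF1 summit of PSMC3.
PSMC3, chr11:47426368-47426397, minus strand, untranslated exon of PSMC3: gagtcgggatttgtggggagaggttttcca

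PSMG2, a chaperone that builds the alpha ring, followed PSMC3 in the MM1.S POU2AF1 list. The region (chr18:12702401-12703168) lay at a later annotated start of the gene, which begins at 12658043. Starts of CEP76 and SPIRE1 lie within 1 kb of PSMG2 starts. The POU2AF1 fold of PSMG2 was 13.6 in MM1.S and 11.7 in NCI-H929, against 4.29 and 5.27 for IRF4. PSMD9, a chaperone of the 19S ATPases, had a POU2AF1 fold of 10.4 in MM1.S and 12.2 in NCI-H929, and PSMD6, a 19S lid subunit, of 10.1 and 10.7. Across all members with a promoter region, the median rank of these regions was at percentile 79.7 of the MM1.S POU2AF1 list and 78.6 of the NCI-H929 list, against 65.8 and 64.8 for the promoter regions of all genes.

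For POU2F3 other members led. PSMD1, the large scaffold of the 19S base, had a fold of 9.94 in NCI-H526, where it was the highest of the 49 genes. That region lay at a later annotated start of PSMD1 (231066906 on chromosome 2), not at the first. In NCI-H1048 the highest was PSMF1, which encodes the proteasome inhibitor PI31, with 11.2, followed by PSMD6 with 9.07, the alpha subunit gene PSMA6 with 8.66 and the catalytic core subunit gene PSMB7 with 8.62. For IRF4 the highest was PSMA1, an alpha subunit gene, with 10.8 in NCI-H929, and PSMD6 with 6.56 in MM1.S. The leading gene thus differed between proteins and, for POU2F3 and IRF4, between lines.

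The summit of the strongest promoter region of each member was set beside the summits of all promoter regions, weaker ones of a gene included. In 8 of the 9 DMSO lists with summits the member summits lay closer to a start. The part of this choice of regions in the gap was not tested. The median distance from a summit to the nearest annotated start was 59 bases for POU2AF1 in MM1.S (102 over all promoter regions), 70 in NCI-H929 (92 over all), 85 for POU2F3 in NCI-H526 (115 over all) and 62 in NCI-H1048 (90 over all). For HA-POU2F3 in NCI-H1048, with 9 genes, it was 167 against 125. Summits were on the upstream side of the start at 36 of 45 genes for POU2F3 in NCI-H526 and 26 of 45 for POU2AF1 in MM1.S. The side was not counted over all genes. Of the 615 regions in member windows over the 10 DMSO lists, 404 (65.7%) were promoter regions, 116 (18.9%) were in introns, 44 (7.15%) upstream, 26 (4.23%) in exons and 25 (4.07%) at the promoter of another gene. Over all regions of a DMSO list, 14.2 to 38.3% lay at promoters. The windows are drawn around genes, so these shares are not like for like.

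Several immunoproteasome genes have a neighbouring start. PSMB8 and PSMB9 are transcribed away from each other from starts 89 bases apart, a second start of PSMB9 lies beside that of TAP1, which encodes part of the peptide transporter, and PSME2 lies beside RNF31. A region at such a place counted for both genes, and 17 of the 49 genes had another protein-coding start within 1 kb. In DMSO the PSMB9 promoter had a fold of 5.08 for POU2F3, 4.46 for HA-POU2F3 and 3.37 for HA-POU2AF2 in NCI-H526, 4.08 for POU2F3 in NCI-H1048, 5.99 for POU2AF1 and 4.82 for IRF4 in MM1.S, and 6.47 for POU2AF1 and 7.27 for IRF4 in NCI-H929. The start shared with TAP1 carried a region in 8 DMSO lists and the start shared with PSMB8 in 4.

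PSMB8 had a promoter region in 4 DMSO lists, with a fold of 3.36 for POU2F3 in NCI-H526, 5.30 for POU2AF1 and 4.64 for IRF4 in MM1.S, and 7.27 for IRF4 in NCI-H929. PSMB10 had one in 5, with 4.37 for POU2F3 and 4.45 for HA-POU2F3 in NCI-H526, 6.82 and 4.82 for POU2AF1 and IRF4 in MM1.S, and 5.44 for IRF4 in NCI-H929. NCI-H929 IRF4 and NCI-H526 POU2F3, the lists with the most regions, were the only DMSO lists with a promoter region at all 5 genes. None of the 5 had one in the HA-unnamed list. PSME1 and PSME2, whose products form the interferon-inducible cap, had a fold of 5.49 and 5.70 for IRF4 in NCI-H929 and no IRF4 promoter region in MM1.S.

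Within 100 bases of the DMSO summits, 8 letter patterns were searched on both strands: the octamer core TTTGCAT, the interferon regulatory factor pattern GAANNGAAA, the ETS pattern CCGGAAGT, the CCAAT box, the antioxidant response element TGACNNNGC, the Sp and KLF pattern GGGCGGG, the YY1 pattern AAGATGGC and, for the E-box, the palindrome CACGTG. Short patterns such as the CCAAT box can overlap neighbouring ones, and a match is a description of the sequence only. At the IRF4 summits of both myeloma lines the divergent PSMB8 and PSMB9 starts held the pattern GAANNGAAA, and 3 other member promoters held it at the NCI-H929 IRF4 summit. These stretches are shown with the match in capitals, since they are the member promoter matches under IRF4 itself.
PSMB8 and PSMB9, chr6:32844027-32844055, plus strand, match in an untranslated exon of PSMB8: ctcggaggagGAAGTGAAAgcgaaagcca
PSME1, chr14:24136195-24136223, minus strand, match in an untranslated exon of PSME1: tgggcaccgcGAAGGGAAAgcgaaagcgg
PSMB3, chr17:38752578-38752646, minus strand, match between protein-coding genes: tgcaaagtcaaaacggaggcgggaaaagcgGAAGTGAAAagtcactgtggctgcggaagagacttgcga
PSMB6, chr17:4796042-4796110, minus strand, match between protein-coding genes: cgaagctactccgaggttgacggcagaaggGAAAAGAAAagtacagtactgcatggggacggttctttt

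The fold of these IRF4 regions was 7.27 at PSMB8 and PSMB9, 5.49 at PSME1, 4.64 at PSMB3 and 4.95 at PSMB6 in NCI-H929, and 4.64 at PSMB8 and PSMB9 in MM1.S. The pattern was not frequent among proteasome promoters under IRF4. It was found at 5 of 106 member promoter regions (4.72%), against 5.17% of the promoter regions of all genes in the same lists. The PSME1 match also lay near the HA-POU2F3 summit of NCI-H526 and the POU2AF1 summit of NCI-H929, the PSMB3 match near the POU2F3 summits of both lung cancer lines, and the PSMB6 match near the POU2AF1 summit of NCI-H929.

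The ETS pattern was more frequent at proteasome promoters than at promoters in general. In the POU2AF1 lists it lay near 20 of 101 member promoter summits (19.8%), against 4.62% over all promoter regions, in the 5 lung cancer lists with summits near 27 of 179 (15.1%) against 5.17%, and in the IRF4 lists near 11 of 106 (10.4%) against 4.48%. The antioxidant response element, the pattern of NFE2L1, which activates proteasome genes, and of NFE2L2, lay near 20 of 101 POU2AF1 summits (19.8%, against 9.74%), 21 of 106 IRF4 summits (19.8%, against 9.67%) and 20 of 179 in the lung cancer lists (11.2%, against 9.0%). YY1 lay near 9 of 101 POU2AF1 summits (8.91%, against 3.65%) and 8 of 179 in the lung cancer lists (4.47%, against 2.79%). At IRF4 summits it lay near 3 of 106 (2.83%, against 2.52%). The E-box share was below that of all promoter regions in each group of lists. For the CCAAT box and the Sp and KLF pattern the direction differed between groups. Summits of 1 gene in several lists are not independent, so these counts carry no test. The promoters whose ETS or antioxidant match lay near the summit in 6 DMSO lists each are shown.
PSMB7, chr9:124415451-124415518, minus strand, ETS, between protein-coding genes: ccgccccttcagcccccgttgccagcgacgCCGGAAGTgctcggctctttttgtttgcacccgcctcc
PSMG3, chr7:1570055-1570122, plus strand, ETS, intron of PSMG3: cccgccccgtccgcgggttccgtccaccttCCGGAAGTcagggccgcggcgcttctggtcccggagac
PSMD12, chr17:67366569-67366596, plus strand, ETS, untranslated exon of PSMD12: gtcacccacaCCGGAAGTtgcccgcgca
PSME4, chr2:53971056-53971083, minus strand, ETS, untranslated exon of the neighbouring ACYP2: ccgccccgccCCGGAAGTgacttgaggc
PSMD3, chr17:39980830-39980858, minus strand, antioxidant response element, untranslated exon of PSMD3: ggccgcacgaTGACGGAGCagctgcaaac

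Letters were also counted without regard to any region. In the RefSeq promoters of GRCh38, which run from 250 bases before to 50 after a start and were matched for 43 of the 49 genes, ETS was present in 8 (18.6%, against 6.32% of 15345 promoters), the antioxidant response element in 13 (30.2%, against 14.3%) and GAANNGAAA in 6 (14%, against 6.74%). The octamer core was in none of the 43, against 3.75% of all.

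**Figure D2:**
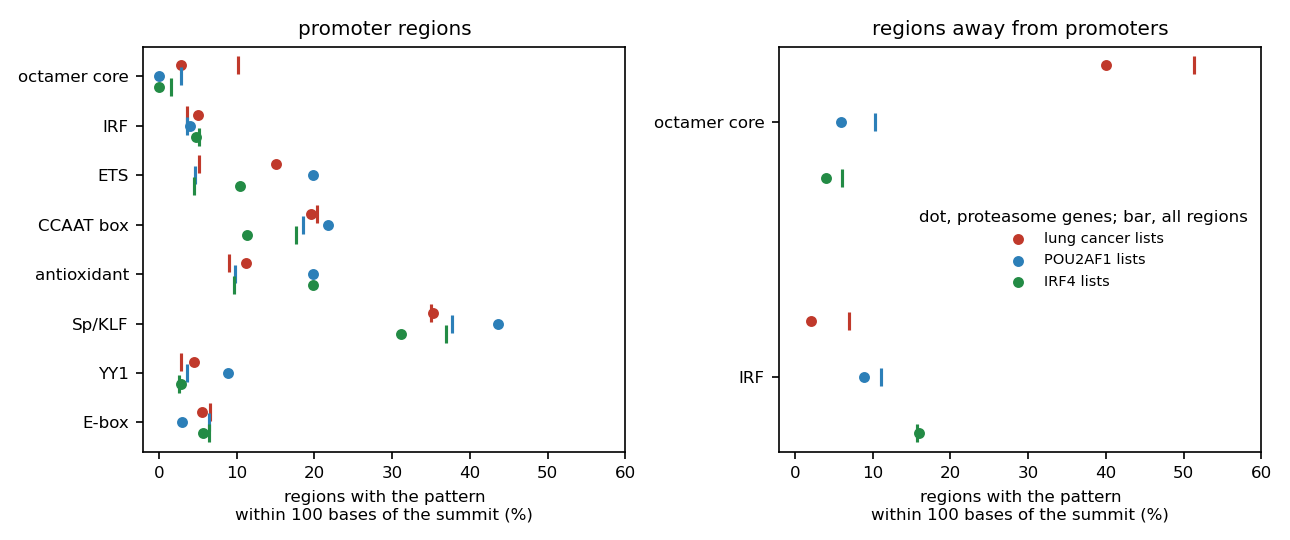
Share (%) of DMSO regions with a sequence pattern within 100 bases of the summit, with dots for proteasome genes and bars for all regions of the same place. Colours mark the 5 lung cancer lists with summits, the 2 POU2AF1 lists and the 2 IRF4 lists. One panel shows the 8 patterns at promoter regions, the other the octamer core and GAANNGAAA away from promoters. At promoters the ETS dots sit above their bars in all 3 groups of lists (15.1, 19.8 and 10.4%), and the octamer dots sit below theirs (2.79, 0 and 0%). Away from promoters the octamer dot of the lung cancer lists stands at 40.0%, against 51.3%.

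The octamer core, the pattern of POU factors, was rare at proteasome promoters and, in the lung cancer lists, common elsewhere in the same windows. In the lung cancer lists it lay near 5 of 179 member promoter summits (2.79%, against 10.2% over all promoter regions), at PSMB3, PSMC2 and PSMG4. Away from promoters it lay near 38 of 95 member summits (40.0%, against 51.3% over all such regions), in the windows of 16 genes. In the POU2AF1 lists it was near 0 of 101 promoter summits (2.79% over all) and near 2 of 34 others (5.88%, against 10.3% over all such regions), both in an intron of PSMA8. Of the octamer stretches 4 are shown, with the match in capitals, a choice made after the values were seen. They are the one found in the most lists (PSMB7), one found in both lung cancer lines (PSMA5), the one at a PSMG4 promoter and the one under POU2AF1 (PSMA8). Others recurred too, among them one in the window of PSME3IP1 in 3 NCI-H526 lists, with folds from 5.21 to 8.79. In PSMA5 a second core, in lower case, follows the first.
PSMB7, chr9:124360078-124360144, minus strand, intron of PSMB7: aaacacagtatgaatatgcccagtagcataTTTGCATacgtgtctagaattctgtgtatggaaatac
PSMA5, chr1:109404604-109404670, plus strand, intron of PSMA5: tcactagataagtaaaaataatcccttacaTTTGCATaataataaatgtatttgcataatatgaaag
PSMG4, chr6:3230720-3230786, plus strand, intron of the neighbouring TUBB2B: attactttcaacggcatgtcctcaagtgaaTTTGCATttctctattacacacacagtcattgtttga
PSMA8, chr18:26191441-26191507, minus strand, intron of PSMA8: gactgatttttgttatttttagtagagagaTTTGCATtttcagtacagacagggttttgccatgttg

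The PSMB7 intronic region was called in 4 lung cancer DMSO lists, with a fold of 6.84 for POU2F3, 4.77 for HA-POU2F3 and 5.35 for HA-POU2AF2 in NCI-H526 and 5.51 for POU2F3 in NCI-H1048. The PSMA5 region had 5.20 for POU2F3 and 5.18 for HA-POU2AF2 in NCI-H526 and 5.24 for HA-POU2F3 in NCI-H1048. The starts of PSMG4 were used in part by different lists. The first annotated protein-coding start, beside the octamer, carried a region in 5 DMSO lists, all of them from the lung cancer lines, whereas the later starts (3258897 to 3259060 on chromosome 6) carried a region in 7, all 4 of the myeloma lines and the 3 of NCI-H526. The PSMA8 intronic region was called for POU2AF1 in both myeloma lines, with a fold of 3.69 in MM1.S and 4.08 in NCI-H929.

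Of the IRF4 regions away from member promoters, 8 of 50 held GAANNGAAA (16%, against 15.7% over all such regions). An intron of PSME4, which encodes the activator PA200, held 2 matches under an IRF4 region of fold 4.16 in MM1.S and 8.01 in NCI-H929, and the match nearest the NCI-H929 summit is in capitals.
PSME4, chr2:53968379-53968447, minus strand, intron of PSME4: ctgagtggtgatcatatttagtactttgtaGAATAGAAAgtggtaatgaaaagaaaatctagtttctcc

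Most promoters recurred between the lines, except for HA-POU2F3. POU2AF1 promoter regions were at 41 of the 49 genes in both MM1.S and NCI-H929 (50.9% of all genes had them in both), and their summits lay a median of 70 bases apart, within 100 bases at 28 of the 41. POU2F3 promoter regions were at 33 genes in both lung cancer lines (35.4% of all), at 12 in NCI-H526 only (21.6% of all) and at 0 in NCI-H1048 only (4.26% of all). IRF4 promoter regions were at 34 genes in both myeloma lines (44.4% of all), at 11 in NCI-H929 only (18.3% of all) and at PSMF1 in MM1.S only (2.44% of all genes had one there only). HA-POU2F3 promoter regions were at 9 genes in both lung cancer lines (14.2% of all), at 32 in NCI-H526 only (36.5% of all) and at 0 in NCI-H1048 only (2.08% of all). The median distance between summits of the 2 lines was 77 bases for POU2F3, 118.5 for IRF4 and 303 for HA-POU2F3. The list with fewer genes was, for POU2F3, HA-POU2F3 and IRF4, the list with fewer regions in all.

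Within a line the proteins also met at the same promoters. POU2AF1 and IRF4 shared 34 member genes in MM1.S (44.5% of all) and 42 in NCI-H929 (53.6% of all), with medians of 170 and 113.5 bases between their summits. In NCI-H526 all 29 genes with a HA-POU2AF2 promoter region had a POU2F3 one (34.0% of all genes had both), with a median of 169 bases between summits. PSMF1 was the only gene with a POU2AF1 and no IRF4 promoter region in NCI-H929 (1.77% of all genes), while PSMB1, PSMB8 and PSMB10 had IRF4 only (9.05% of all genes).

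With AU-15330 the number of proteasome genes with a promoter region was lower in 9 of the 10 pairs and higher in 1. In NCI-H526 it went to 17 for POU2F3 (17.1% of all protein-coding genes), 22 for HA-POU2F3 (24.7% of all) and 0 for HA-POU2AF2 (0.973% of all). In NCI-H1048 it went to 47 for POU2F3 (61.5% of all), 7 for HA-POU2F3 (7.70% of all) and 2 for the HA-unnamed protein (0.744% of all). In MM1.S it went to 39 for POU2AF1 (48.3% of all) and 13 for IRF4 (15.4% of all), and in NCI-H929 to 40 for POU2AF1 (49.5% of all) and 1 for IRF4 (1.88% of all). Over the 10 lists the share of combinations with a promoter region was 38.4%, against 70.0% in DMSO, and in all genes it was 22.8%, against 44.1%. Without the NCI-H1048 POU2F3 pair, which went the other way, the proteasome shares were 70.3% in DMSO and 32.0% with AU-15330, an alternative chosen after the values were seen.

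Counts over the whole window moved the same way. With AU-15330 a region lay in the window of 21 genes for POU2F3 in NCI-H526 (34.5% of all protein-coding genes), 25 for HA-POU2F3 (38.6% of all) and 1 for HA-POU2AF2 (6.79% of all). In NCI-H1048 it did for 49 genes with POU2F3 (77.6% of all), 9 with HA-POU2F3 (17.7% of all) and 2 with the HA-unnamed protein (3.45% of all). In MM1.S the counts were 42 for POU2AF1 (61.6% of all) and 16 for IRF4 (24.3% of all), and in NCI-H929 they were 41 for POU2AF1 (59.7% of all) and 2 for IRF4 (5.83% of all). The share of proteasome windows lay below that of all genes for HA-POU2AF2 (2.04%) and for IRF4 in NCI-H929 (4.08%).

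**Figure D3:**
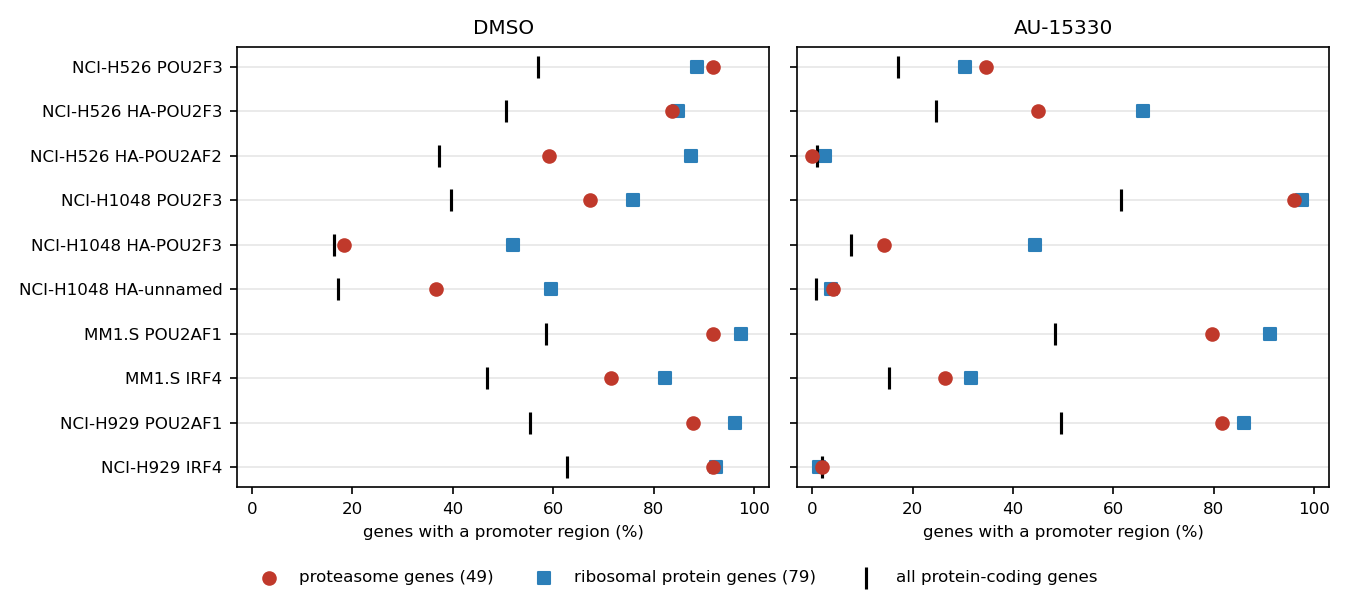
Share of genes (%) with a promoter region in each of the 10 pairs of lists, in DMSO and with AU-15330, for the 49 proteasome genes, the 79 ribosomal protein genes and all 20033 protein-coding genes. The proteasome share drops from 91.8 to 2.04% for IRF4 in NCI-H929 and rises from 67.3 to 95.9% for POU2F3 in NCI-H1048.

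Genes that had a promoter region in DMSO kept one with AU-15330 as follows. A gene kept one when any of its starts had a region with AU-15330, even one that did not overlap the DMSO region. In NCI-H526 these were 17 of 45 genes for POU2F3 (29.5% of all such genes kept one), 20 of 41 for HA-POU2F3 (44.0% of all) and 0 of 29 for HA-POU2AF2 (2.03% of all). In NCI-H1048 they were 33 of 33 for POU2F3 (97.1% of all), 3 of 9 for HA-POU2F3 (27.0% of all) and 2 of 18 for the HA-unnamed protein (3.14% of all). In MM1.S they were 38 of 45 for POU2AF1 (80.2% of all) and 12 of 35 for IRF4 (29.3% of all), and in NCI-H929 37 of 43 for POU2AF1 (84.1% of all) and 1 of 45 for IRF4 (2.93% of all). The widest gap between the proteasome genes and all genes was 37.8% against 29.5%, for POU2F3 in NCI-H526, so these shares followed those of all genes in each pair.

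Genes that first had a promoter region with AU-15330 were few except in NCI-H1048 POU2F3. There 14 of the 16 genes without one in DMSO gained one (38.2% of all such genes), among them PSMA1, PSMB6, PSMC6, PSMD4 and 4 immunoproteasome genes. The other lists with gains were HA-POU2F3 in NCI-H526 (PSMB8 and PSMD9, 4.90% of all), HA-POU2F3 in NCI-H1048 (PSMB1, PSMD4, PSMD7 and PSMD14, 3.95% of all), POU2AF1 in MM1.S (PSMA6, 3.33% of all) and NCI-H929 (PSMB1, PSMB8 and PSMB10, 6.51% of all), and IRF4 in MM1.S (PSMB7, 3.13% of all). No proteasome gene gained one in the remaining 4 lists, where 0.790% (NCI-H526 POU2F3), 0.342% (NCI-H526 HA-POU2AF2), 0.247% (NCI-H1048 HA-unnamed) and 0.120% (NCI-H929 IRF4) of all such genes did.

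A DMSO region was counted as retained when a region of the AU-15330 list covered at least 1 base of it. At proteasome promoters 16 of 58 regions were retained for POU2F3 in NCI-H526 (22.5% over the promoter regions of all genes), 16 of 47 for HA-POU2F3 (34.4% over all) and 0 of 31 for HA-POU2AF2 (1.48% over all). In NCI-H1048 the counts were 33 of 34 for POU2F3 (89.8% over all), 2 of 9 for HA-POU2F3 (20.2% over all) and 2 of 18 for the HA-unnamed protein (2.59% over all). In the myeloma lines they were 43 of 52 for POU2AF1 (67.9% over all) and 13 of 43 for IRF4 (19.9% over all) in MM1.S, and 40 of 49 for POU2AF1 (74.1% over all) and 1 of 63 for IRF4 (1.92% over all) in NCI-H929. Exact 95% intervals of these shares (Clopper-Pearson), which reflect counting noise alone and not the spread between libraries, were 69.7 to 91.8% for POU2AF1 and 17.2 to 46.1% for IRF4 in MM1.S, and 68.0 to 91.2% and 0.0402 to 8.53% in NCI-H929.

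Regions in the same windows that lay away from any promoter were retained less, except for HA-POU2AF2, where no region of either place was retained. Several of the counts are small. The counts were 5 of 43 for POU2F3 in NCI-H526 (15.7% over all such regions), 1 of 19 for HA-POU2F3 (10.0% over all), 0 of 15 for HA-POU2AF2 (1.20% over all), 3 of 13 for POU2F3 in NCI-H1048 (33.3% over all), 0 of 5 for HA-POU2F3 (5.49% over all) and 0 of 7 for the HA-unnamed protein (1.82% over all). For POU2AF1 they were 3 of 20 in MM1.S (15.9% over all) and 2 of 14 in NCI-H929 (16.3% over all), and for IRF4 0 of 19 (5.44% over all) and 0 of 31 (0.592% over all). The gap was widest for POU2F3 in NCI-H1048 and for POU2AF1. The exact intervals away from promoters were 5.04 to 53.8% for POU2F3 in NCI-H1048, where the interval at promoters was 84.7 to 99.9%, and 3.21 to 37.9% in MM1.S and 1.78 to 42.8% in NCI-H929 for POU2AF1. All regions of the genome showed the same order of places in these 3 pairs.

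**Figure D4:**
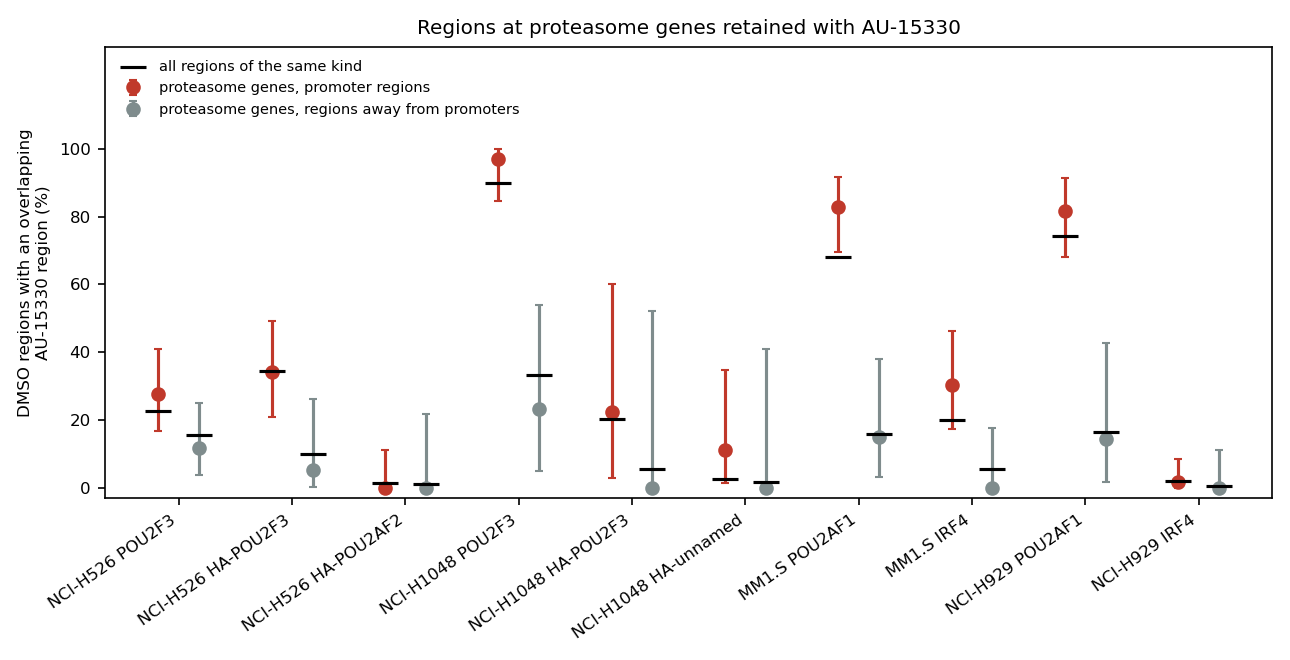
Share (%) of DMSO regions retained with AU-15330 in each pair, for promoter regions of proteasome genes and for regions in their windows away from promoters, with exact 95% binomial intervals, and black bars for all regions of the same kind. For POU2AF1 the promoter points stand at 82.7% in MM1.S and 81.6% in NCI-H929 and the other points at 15.0 and 14.3%, while for HA-POU2AF2 both points are at 0%.

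The background pileup moved with some of these counts. This value, the smallest local background of a list, was 3.49 for HA-POU2AF2 in DMSO and 1.21 with AU-15330, and 4.03 and 2.02 for POU2F3 in NCI-H526, whereas the other pairs with a recovered pileup stood between 1.94 and 3.04 in every list. The part of depth in the counts was not tested. Over all regions in member windows, 21 of 104 were retained for POU2F3 in NCI-H526 (20.2%, against 16.7% over all regions of the genome) and 17 of 70 for HA-POU2F3 (24.3%, against 14.6%). When both lists were held to the same number of strongest regions by fold, these shares were 68.8% (11 of 16, against 50.7% over all regions) and 50% (6 of 12, against 28.4%). They were 75% (39 of 52, against 52.7%) in place of 63.2% for POU2AF1 in NCI-H929 (38.4% over all regions as deposited) and 10.0% (1 of 10, against 15.7%) in place of 21.9% for IRF4 in MM1.S (9.76% over all regions as deposited).

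The octamer regions away from promoters were retained about as often as the other regions there. In the lung cancer lists 4 of the 38 in member windows were retained (10.5%), against 9 of all 95 (9.47%), and over the genome the shares were 16.8 and 14.2%. The 4 were POU2F3 regions of NCI-H526, in the windows of PSMA1, PSMA8, PSME4 and PSMG4. The PSMB7 and PSMA5 intronic regions shown were retained in none of their lists. Of the 5 octamer promoter regions 2 were retained, at PSMB3 for HA-POU2F3 in NCI-H526 and at PSMG4 for HA-POU2F3 in NCI-H1048. In NCI-H929 none of the IRF4 regions shown, at PSMB8 and PSMB9, PSME1, PSMB3, PSMB6 and in the intron of PSME4, was retained. In MM1.S those at PSMB8 and PSMB9 and in PSME4 were not retained either, and PSME1 had none in DMSO. PSMB3 and PSMB6 had IRF4 promoter regions in MM1.S in DMSO, but without GAANNGAAA near the summit. PSMB6 had no promoter region there with AU-15330. The region at PSMB3 was retained, with a level of 15.5 in DMSO and 6.58 with AU-15330. Neither line retained the highest IRF4 region in any member window, in an intron of PSMA1 (chr11:14578516-14578907, a fold of 15.9 in NCI-H929 and 7.50 in MM1.S), which held neither the octamer core nor GAANNGAAA near its summit.

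For retained promoter regions the level was compared as the summit pileup divided by the background pileup of the list, which could be recovered in 18 lists. The level with AU-15330 over that in DMSO had a median of 0.743 at 16 member regions for POU2F3 in NCI-H526 (0.790 over all retained promoter regions), lower at 13 of 16 (74.7% of all). For HA-POU2F3 in NCI-H526 it was 0.830 at 16 regions (0.739 over all), lower at 14 (84.3% of all). For POU2AF1 it was 0.832 at 43 regions in MM1.S (0.812 over all), lower at 32 (76.9% of all), and 0.937 at 40 in NCI-H929 (0.981 over all), lower at 26 (52.0% of all). For IRF4 in MM1.S it was 0.787 at 13 regions (0.770 over all), lower at 10 (82.5% of all). HA-POU2F3 in NCI-H1048 had 2 such regions, both lower (77.3% of all), and IRF4 in NCI-H929 had 1, also lower (98.2% of all). Only regions strong enough to be called again enter these ratios.

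POU2F3 in NCI-H1048 went the other way. At its 33 retained member promoter regions the level ratio had a median of 2.42, with a range from 1.26 to 6.84, and 0 of 33 were lower (7.43% of all, median 2.13). The lowest ratio was at PSMB5 and the highest at PSMA2, an alpha subunit gene, whose level went from 5.30 to 36.2. PSMF1 went from 21.2 to 55.3, PSMG3 from 13.2 to 46.8 and PSMD11, a 19S lid subunit, from 17.2 to 59.9. In NCI-H526 the PSMF1 level instead went from 22.1 to 11.4 for POU2F3 and from 19.1 to 10.8 for HA-POU2F3. The higher level was shared by the retained promoter regions of all genes in that list. Levels away from promoters were not summarised, and the difference between the lines was not tested.

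**Figure D5:**
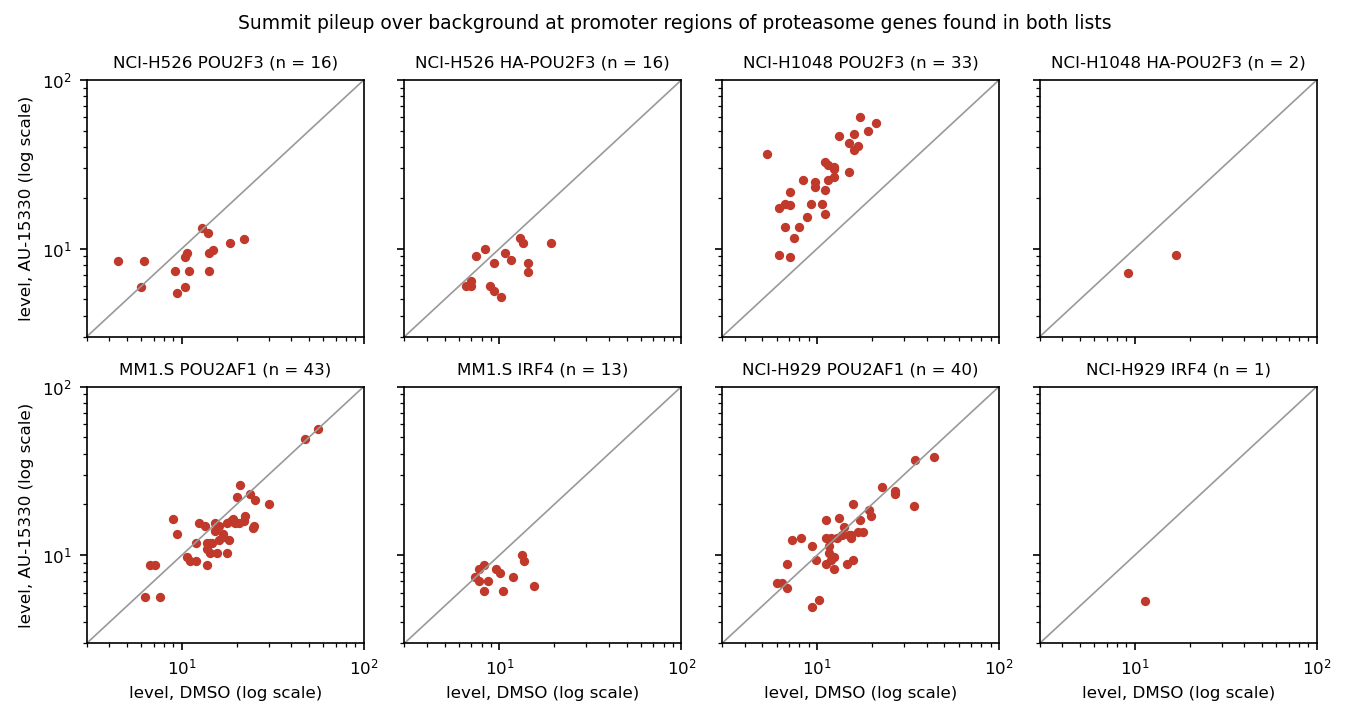
Level (summit pileup over background pileup, logarithmic axes) in DMSO (horizontal) and with AU-15330 (vertical) at each retained promoter region of proteasome genes in the 8 pairs that have any, with the line of equal levels. All 33 points of NCI-H1048 POU2F3 lie above the line, 32 of the 43 points of MM1.S POU2AF1 lie below it, and PSMC3 is the highest POU2AF1 point of both myeloma lines.

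PSMC3 kept a promoter region with AU-15330 in 7 lists, the most of any member. The fold there was 5.38 for POU2F3 and 7.01 for HA-POU2F3 in NCI-H526, 10.2 for POU2F3 in NCI-H1048, 15.5 for POU2AF1 and 3.51 for IRF4 in MM1.S, and 14.9 for POU2AF1 and 4.02 for IRF4 in NCI-H929. The POU2AF1 level ratio was 1.01 in MM1.S and 0.867 in NCI-H929, and the IRF4 ratio 0.586 and 0.470. It was the only member with an IRF4 promoter region in NCI-H929 after AU-15330. PSMG2 kept its POU2AF1 region at level ratios of 1.03 in MM1.S and 1.06 in NCI-H929, and its fold with AU-15330 was 15.0 and 13.6.

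Other leading POU2AF1 promoters had a lower level with AU-15330 in at least 1 line. PSMD9 had ratios of 0.760 in MM1.S and 0.572 in NCI-H929, PSMB7 of 0.588 and 0.967, and PSMD6 of 0.663 and 1.12. PSMG3, which chaperones the alpha ring, had 0.676 and 1.68, so its direction differed between the lines. The lowest ratios were 0.578 at PSME3, the gene of the nuclear activator PA28 gamma, in MM1.S, and 0.520 at PSMC6, a 19S ATPase, in NCI-H929. The highest were 1.85 at PSMD2, a 19S scaffold subunit, in MM1.S and 1.68 at PSMG3 in NCI-H929.

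Where both proteins of a line had a promoter region in DMSO, keeping POU2AF1 only was the most frequent outcome. In NCI-H929, of 42 such genes 36 (85.7%) kept POU2AF1 only, 1 kept both (PSMC3) and 5 kept neither (PSMA3, PSMB3, PSMC5, PSME1 and PSME4), and over all genes 82.7% kept POU2AF1 only. In MM1.S, of 34 genes 19 kept POU2AF1 only, 11 kept both, 1 kept IRF4 only and 3 kept neither (PSMA2, PSMC5 and PSMC6), and over all genes the shares were 57.5, 28.7, 1.74 and 12.1%. In NCI-H526, of the 29 genes with POU2F3 and HA-POU2AF2 regions, 11 kept POU2F3 only and 18 kept neither (35% and 62.7% over all genes). Of 40 genes with POU2F3 and HA-POU2F3 regions in the same line, 9 kept both, 8 kept POU2F3 only, 11 kept HA-POU2F3 only and 12 kept neither (22.4, 12.0, 25.5 and 40.1% over all genes). The POU2F3 and HA-POU2F3 pairs thus kept partly different genes. They differ in the cells as well as in the antibody, and these cannot be told apart.

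With AU-15330 the immunoproteasome genes had a promoter region in 14 of 50 combinations (28.0%), against 26 in DMSO (52.0%). The shares were 41.7 and 75.9% for the constitutive genes and 22.8 and 44.1% for all protein-coding genes, so the drop for the immunoproteasome genes was near that of all genes. For IRF4 they went from 5 genes to 0 in NCI-H929 and from 3 to 1 (PSMB10) in MM1.S. For POU2AF1 they went from 4 to 2 in MM1.S (PSMB8 and PSMB9) and from 3 to 4 in NCI-H929 (PSMB8, PSMB9, PSMB10 and PSME2). For POU2F3 they went from 5 to 0 in NCI-H526 and from 1 to 5 in NCI-H1048, where the fold with AU-15330 was 4.85 at PSMB8, 5.53 at PSMB9, 5.94 at PSMB10, 4.31 at PSME1 and 4.37 at PSME2.

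With AU-15330 the PSMB9 fold for POU2AF1 was 5.43 in MM1.S and 6.13 in NCI-H929, against 5.99 and 6.47 in DMSO. For HA-POU2F3 in NCI-H526 it was 4.20 at the start shared with PSMB8, against 4.46 in DMSO at the start shared with TAP1. PSME1, the alpha subunit of the cap, kept a region in none of the 5 lists in which it had one in DMSO. PSMB8 and PSMB9 were counted from the same region in some lists, so the counts of immunoproteasome genes rest on fewer places than genes.

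Genes that work with the proteasome were set beside all protein-coding genes, of whose combinations 44.1% had a promoter region in DMSO and 22.8% with AU-15330. For 25 genes of proteasome assembly, ubiquitin supply and transcriptional control, 83.2% of combinations had a promoter region in DMSO and 49.2% with AU-15330. NFE2L1 and NFE2L2, the transcription factors of the antioxidant response element, had one in all 10 DMSO lists, and in 6 and 7 lists with AU-15330. POMP, the chaperone that completes the core, had one in 6 and 4. For 10 genes of antigen presentation the shares were 62.0% and 28.0%. TAP1 had a promoter region in 8 DMSO and 3 AU-15330 lists, as did B2M, the light chain of class I molecules.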

How the data were processed

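Reads were trimmed (Trimmomatic 0.39) and mapped to hg38 (BWA) by the authors, who handled the alignments with SAMtools and Picard, called narrow peaks at a q-value of 0.05 with MACS2 and dropped blacklisted regions. No control library is named in the sources used here. The deposited lists give per region the fold of the summit over local background (a ratio), −log10 p, −log10 q and a score, and 18 of the 20 give a summit position.

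Regions outside chromosomes 1 to 22, X and Y (0.283 to 12.4% of a list) were left out. Genes and starts came from GENCODE release 44. From fold and −log10 p the whole-number summit pileup was recovered for at least 99.9% of regions in 18 lists and for at most 6.03% in the HA-unnamed pair, which was given no levels. Python 3.11.15, pandas 2.3.3 and SciPy 1.17.1 were used, and the recovery was tested on simulated data. The members and gene lists were chosen with earlier results of these data known. Members were named when they led a list, were immunoproteasome genes or carried a printed match. Depth beyond the background pileup is unknown.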

Additional observations from a re-analysis of the deposited data

Results flagged for a closer look

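POU2F3 at proteasome promoters moved in opposite directions in the lung cancer lines: the number of genes with a promoter region changed by -28 with AU-15330 in NCI-H526 and by 14 in NCI-H1048. The median level ratio at retained promoter regions was 0.743 and 2.42. The difference was not tested, since each condition had 1 library, and HA-POU2F3 in NCI-H1048 was not higher (9 genes in DMSO and 7 with AU-15330).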

How the results depend on the processing

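Of the recomputed values, 84 stayed within the limits set and 34 moved. Each condition had 1 library, so no replicate could be left out. No paired analysis was possible because no result comes from a test. Depth beyond the background pileup is unknown, so counts of weak regions carry that limit, in HA-POU2AF2 above all.

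With regions at −log10 q of 5 or more, the genes with a promoter region were 11 for NCI-H526 HA-POU2F3 with AU-15330, 17 for HA-POU2AF2 in DMSO, 3 and 0 for NCI-H1048 HA-POU2F3 (DMSO and AU-15330), 2 and 0 for HA-unnamed, 22 and 2 for MM1.S IRF4, and 0 for NCI-H929 IRF4 with AU-15330. Genes with a region in the window were then 11 for NCI-H526 HA-POU2F3 and 0 for HA-POU2AF2 with AU-15330, 4 and 0 for NCI-H1048 HA-POU2F3, 2 and 0 for HA-unnamed, 4 for MM1.S IRF4 and 0 for NCI-H929 IRF4 with AU-15330. Within 250 bases of a start HA-unnamed with AU-15330 had 1 gene, and with 2 kb upstream the window of NCI-H929 IRF4 with AU-15330 had 1. These counts were made for the proteasome genes only, so no share over all genes stands beside them.

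The retained share of all member regions became 9.62% for NCI-H526 POU2F3, 0% for HA-unnamed, 10.9% for MM1.S IRF4 and 0% for NCI-H929 IRF4 when 50% of a region had to be covered. At −log10 q of 5 or more in both lists it was 87.9% for NCI-H1048 POU2F3, 0% for NCI-H1048 HA-POU2F3, HA-unnamed and NCI-H929 IRF4, and 6.25% for MM1.S IRF4. For these settings no share over all regions was computed. With equal numbers of regions it was 68.8% for NCI-H526 POU2F3 (50.7% over all regions), 50% for HA-POU2F3 (28.4% over all) and 75% for NCI-H929 POU2AF1 (52.7% over all). It was 10% for MM1.S IRF4 (15.7% over all). With 1 member region each, it was 0% for HA-unnamed (10.8% over all) and NCI-H929 IRF4 (2.07% over all). No member region was left for NCI-H526 HA-POU2AF2 or NCI-H1048 HA-POU2F3. The causes of these changes were not tested. The −log10 q and equal-number settings use fewer regions, whereas the 50% setting keeps all regions and asks for more overlap. Leaving out PSME3IP1, the tissue-specific genes or any 1 of 3 pairs, chosen after seeing the data, gave shares of 70.2 to 73.7% in DMSO and 32.0 to 42.6% with AU-15330.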
